A study of Mus musculus with 8 samples.

Results

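IGF2, insulin-like growth factor 2, its receptors and the proteins that bind its messenger RNA were followed from the 8-cell embryo to the blastocyst. The group was set by name as 7 genes (Igf2, Igf2r, Igf1r, Insr, Igf2bp1, Igf2bp2 and Igf2bp3), and its members are the 22 probe sets whose platform symbol is exactly one of these names, out of 45037 probe sets on the array. They cover 6 of the 7 genes, and Igf2bp2 was not analysed here. Blastocysts were read on 4 arrays (embryonic day 4.5, 120 h after the hormone hCG that times ovulation), and 8-cell embryos on another 4 (day 2.5, 66 h). At both stages the arrays read whole wild-type embryos of B6D2F1 parents that had been cultured in KSOM medium from the 1-cell zygote, so all groups share the in vitro culture, and the comparison asks what changes while the embryo forms its outer epithelium and cavity. The labels do not say whether each array had its own batch of embryos, so p-values measure only the spread between these arrays, which may be technical.

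IGF2 is a secreted growth factor of the embryo and placenta. It signals through the tyrosine kinase receptor IGF1R and through the insulin receptor, which passes on growth and survival signals by way of the PI3K and MAPK pathways. The receptor encoded by Igf2r, also called the cation-independent mannose 6-phosphate receptor, does not pass on this signal but takes IGF2 into the cell and to the lysosome, and it also carries newly made lysosomal enzymes there. Igf2bp1, Igf2bp2 and Igf2bp3 encode cytoplasmic RNA-binding proteins that were named for binding IGF2 messenger RNA and that bind and stabilise many others. In the mouse Igf2 and Igf2r are imprinted genes used by opposite parental alleles in the later embryo, and the arrays do not tell the alleles apart.

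Signals are linear array intensities, and each difference is blastocyst minus 8-cell of log2(signal + 16), with its standard error (SE). All p-values come from limma and were adjusted (Benjamini-Hochberg) over the 28227 probe sets that lay above the array's 40th percentile on at least 4 of the 8 arrays. That percentile was at signals of 28.3 to 35.7. Since all arrays share 1 trimmed mean, a rise or fall is relative to the other signals of the array and is not an amount per embryo, and the number of arrays limits the precision. Log2 signals correlated at 0.978 to 0.985 between blastocyst arrays, at 0.972 to 0.976 between 8-cell arrays and at 0.767 to 0.790 across stages. The markers fitted the labelled stages. All 8 trophectoderm markers were higher in blastocysts, among them Eomes (a difference of 5.17) and Cdx2. Cdx2 gave 8768 ± 324 in blastocysts and 627 ± 66.7 in 8-cell embryos (SD, n = 4 each). All 7 tested markers of the 8-cell stage and of genome activation were lower, among them Obox6 (-5.82) and Klf17. Klf17 gave 114 ± 30.0 in blastocysts and 12913 ± 1811 in 8-cell embryos. Elf5, a trophectoderm marker, was under the 40th percentile on all 8-cell arrays. Omt2b, Arg1, Nlrp14 and Oosp1, of the 8-cell list, were under it on all blastocyst arrays. These 5 genes passed the filter only through the stage where they are high, so their calls add no support.

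Among the members, 19 of the 22 probe sets passed the filter. Of these, 12 rose in blastocysts, 4 fell and 3 missed the threshold, which is 84.2% called against 66.4% of all tested probe sets (33.6% higher and 32.8% lower). Most of the array changed between these stages, so a call alone says little about a gene. Probe sets with the same symbol share a gene, and the counts are therefore not independent. The 4 values of a stage lay wholly apart in 14 of the 19, 11 of them higher and 3 lower, against 61.2% of all tested probe sets (31.4% higher and 29.8% lower). A pair of these probe sets, 1 of Igf2 and 1 of Insr, was under the 40th percentile on all 8-cell arrays and passed the filter only through the blastocysts. Without them 10 of 17 were higher and 4 lower, and 9 and 3 of these lay wholly apart. On the brightest probe set of each gene the largest differences were those of Insr and Igf2, higher in blastocysts, and Igf2r, lower. Averaged over probe sets, Insr (1.51) came below Igf2bp3 (1.89).

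**Figure D1:**
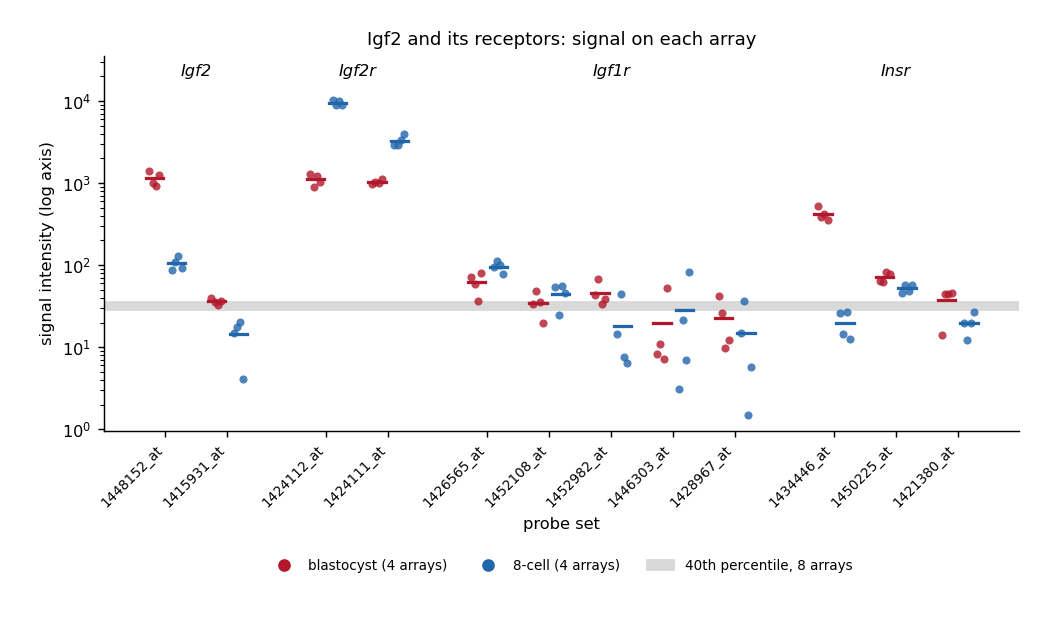
Signal intensity on a log axis for each probe set of Igf2, Igf2r, Igf1r and Insr, with a point for each of 4 blastocyst arrays (left, red) and 4 8-cell arrays (right, blue) and a bar at the mean. The grey band is the range of the 40th percentile over the 8 arrays (28.3 to 35.7). Igf2 on 1448152_at and Insr on 1434446_at stand above their 8-cell values, both Igf2r probe sets stand below, and the Igf1r probe sets lie near the band.

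Igf2, the ligand (chr7:142650768-142666816, GRCm38.p6), was higher in blastocysts. On the brighter, 1448152_at, the signals were 1419.6, 991, 927 and 1247 in blastocysts, against 88.3, 110.4, 129 and 92.8 in 8-cell embryos. The lowest blastocyst array was thus far above the highest 8-cell array, and the 8-cell signals themselves were above the 40th percentile on each array. The difference was 3.25 (SE 0.18, 9.53-fold, adjusted p = 2.89e-07), and 2.79% of all tested probe sets rose more. The second probe set, 1415931_at, was dim, with 39.96, 35.5, 32.3 and 36.6 in blastocysts and 15.0, 17.7, 20.4 and 4.1 in 8-cell embryos. All its 8-cell arrays were under the 40th percentile and it passed the filter only through the blastocysts, so it adds no support. Set against that percentile, its blastocyst signal was at least 1.07-fold higher. Averaging both probe sets gave 2.03 for the gene. Whole embryos were measured, so a change in the share of cells of a type and a change in RNA per cell cannot be told apart, here and below.

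Transcription of Igf2 can start at several promoters, and the RefSeq promoter set (GRCm38.p6) holds 4 windows for it, each from 250 bases before to 50 after a start. Which transcripts the probe sets read was not analysed here. The third of these windows, counted in the direction of transcription, is shown because it is the only member window that holds the palindromic AP-2 motif GCCNNNGGC (the same on both strands), the motif of the transcription factor family named in the study's title. The match is in capitals and begins at position -203 from the start.
Igf2, chr7:142658755-142659054, minus strand: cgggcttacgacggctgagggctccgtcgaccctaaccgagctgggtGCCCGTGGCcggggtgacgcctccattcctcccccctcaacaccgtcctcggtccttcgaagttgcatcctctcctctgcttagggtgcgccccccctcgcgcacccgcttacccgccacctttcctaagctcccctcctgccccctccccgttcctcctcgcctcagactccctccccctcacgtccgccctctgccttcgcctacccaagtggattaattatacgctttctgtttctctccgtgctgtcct
Windows were found for 5 of the 7 genes, 8 windows in all, and 1 of the 8 holds the motif, against 16.6% of all 32851 windows. A match describes these letters and does not show a bound site.

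Igf2r, the clearance receptor (chr17:12682406-12769706), was lower in blastocysts on both of its probe sets. On 1424112_at the signals were 1283, 903, 1235 and 1040.4 in blastocysts, against 10293, 8884, 9879 and 8912 in 8-cell embryos. All 4 blastocyst arrays lay far below all 4 8-cell arrays, with a difference of -3.08 (SE 0.15, 8.47-fold lower, adjusted p = 1.38e-07), and 1.84% of all tested probe sets fell more. On 1424111_at the signals were 984, 1028, 993 and 1126 in blastocysts and 2949, 2901, 3350 and 4000.3 in 8-cell embryos. The direction was the same and the size smaller (-1.65, SE 0.14, 3.14-fold lower, adjusted p = 5.06e-06), and the average of the pair gave -2.37. Igf2r was therefore still measured well above the 40th percentile in blastocysts on both probe sets.

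The Igf2r window holds 34 CG dinucleotides in 300 bases, against 25 for Igf2bp3, 48 for Igf1r, 47 for Igf2bp2 and 2 to 24 in the Igf2 windows. It is shown beside the Igf2bp3 window because in both genes every called probe set moved one way. The Igf2bp3 window lies within the span given for that gene below and not at its end. Capitals would mark the AP-2 motif, and there is none in either window.
Igf2r, chr17:12769657-12769956, minus strand: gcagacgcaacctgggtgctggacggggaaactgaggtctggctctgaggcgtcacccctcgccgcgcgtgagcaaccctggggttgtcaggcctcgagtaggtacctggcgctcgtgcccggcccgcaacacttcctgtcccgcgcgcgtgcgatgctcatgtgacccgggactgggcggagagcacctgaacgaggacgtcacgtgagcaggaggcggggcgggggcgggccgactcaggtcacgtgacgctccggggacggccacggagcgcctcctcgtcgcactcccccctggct
Igf2bp3, chr6:49214905-49215204, minus strand: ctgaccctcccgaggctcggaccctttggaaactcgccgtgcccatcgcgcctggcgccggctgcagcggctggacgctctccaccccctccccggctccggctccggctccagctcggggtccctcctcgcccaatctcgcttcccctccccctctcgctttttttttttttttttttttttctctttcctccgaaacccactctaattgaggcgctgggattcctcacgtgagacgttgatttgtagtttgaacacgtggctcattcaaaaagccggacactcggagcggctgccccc

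Insr, the insulin receptor gene (chr8:3150922-3279649), was read by 3 probe sets. On 1434446_at the signals were 531, 389, 418 and 358 in blastocysts, against 25.9, 14.6, 26.7 and 12.7 in 8-cell embryos. All 8-cell arrays were under the 40th percentile there, so only a bound can be given. Against that percentile the blastocyst signal was at least 12.4-fold higher (adjusted p = 1.95e-07 in a fit that it entered only through the blastocysts). The fitted difference of 3.62 depends on the added 16, and was 4.40 with 1 added and 2.53 with 64 added. The probe set 1450225_at moved little, with 64.4, 62.2, 82.6 and 79.1 in blastocysts and 45.5, 57.5, 48.6 and 56.7 in 8-cell embryos. Its stages did not overlap, but the difference was small (0.37, SE 0.14, adjusted p = 0.0391). That call was lost in 8 of 17 alternatives, over which the adjusted p ran from 0.0163 to 0.164. It was lost with the replicate number as a block (adjusted p = 0.0774), no filter (0.0691), 64 added (0.104) and an intensity trend (0.164). It was also lost without blastocyst replicate 3 (a difference of 0.31) or 4 (0.33) or 8-cell replicate 1 (0.32) or 3 (0.34). The third, 1421380_at, did not pass the filter, with 14.2 to 45.8 in blastocysts and 12.3 to 27.2 in 8-cell embryos. Averaging the 3 gave 1.51 for the gene, so the size of the Insr rise rests on 1434446_at.

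Igf1r, the other signalling receptor (chr7:67952257-68233668), was dim at both stages. It had 5 probe sets, of which 3 were tested, and none of the 5 separated the stages. On the brightest, 1426565_at, the signals were 70.9, 59.1, 36.2 and 80.4 in blastocysts and 94.0, 111.0, 100.6 and 78.3 in 8-cell embryos, so the highest blastocyst array was above the lowest 8-cell array. The fit called it lower (-0.56, SE 0.20, adjusted p = 0.0337), but the call was lost in 10 of 19 alternatives with the same sign, 1 more reversed it without passing, and the adjusted p ran from 0.0184 to 0.733. It was lost with the replicate block (adjusted p = 0.0633), and without blastocyst replicate 2 (-0.55) or 3 (-0.38) or 8-cell replicate 1 (-0.56), 2 (-0.49) or 3 (-0.53). The probe set 1452982_at was called the other way (0.94, SE 0.31, adjusted p = 0.0236), with 42.9, 68.3, 33.5 and 38.3 in blastocysts and 14.6, 44.8, 7.6 and 6.5 in 8-cell embryos. That call too was lost without blastocyst replicate 2 (0.78) or 8-cell replicate 3 (0.80) or 4 (0.78). The third tested probe set, 1452108_at, gave -0.27 (SE 0.23, adjusted p = 0.338), and the mean of all 5 gave 0.07 (adjusted p = 0.733). A stage difference of Igf1r was not settled by these signals.

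**Figure D2:**
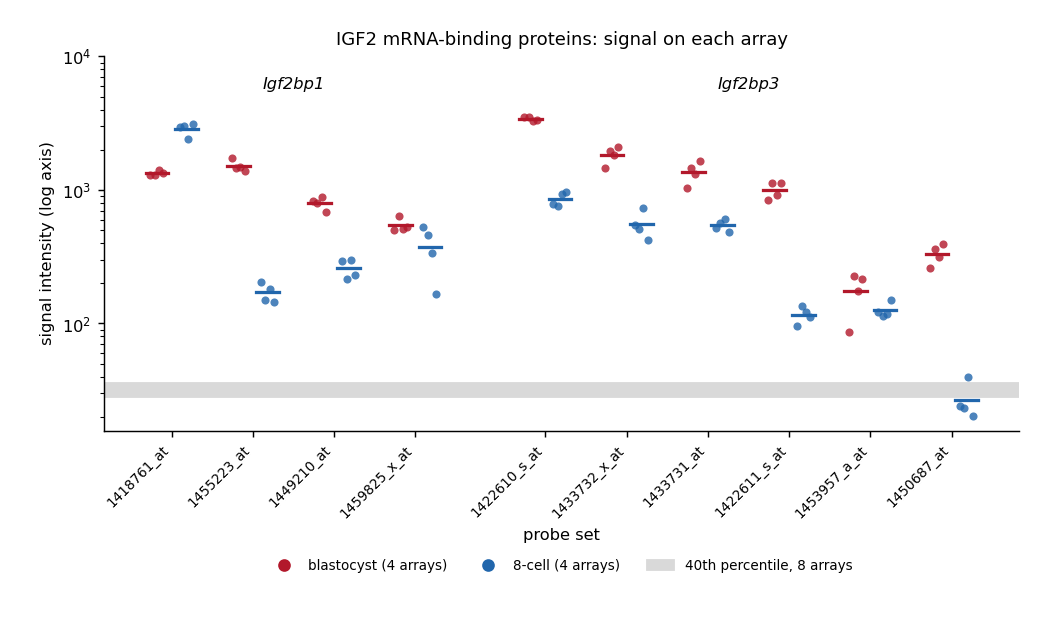
Signal intensity on a log axis for each probe set of Igf2bp1 and Igf2bp3, with a point for each of 4 blastocyst arrays (left, red) and 4 8-cell arrays (right, blue) and a bar at the mean. Of the Igf2bp1 probe sets, 1418761_at is lower in blastocysts, while 1455223_at and 1449210_at are higher. For Igf2bp3, 5 of 6 are higher with no overlap.

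Igf2bp3, an mRNA-binding protein of embryonic tissue (chr6:49085218-49215469), was higher in blastocysts on 5 of its 6 probe sets. On the brightest, 1422610_s_at, the signals were 3531, 3521, 3265 and 3350 in blastocysts, against 780.0, 764, 927 and 965 in 8-cell embryos. The blastocyst values lay close together and all above the 8-cell values (1.98, SE 0.13, 3.94-fold, adjusted p = 8.46e-07). The probe set 1422611_s_at gave 842, 1130.0, 917 and 1136 in blastocysts and 95.4, 135, 122 and 112 in 8-cell embryos (2.95, SE 0.16, adjusted p = 2.37e-07). The probe sets 1433732_x_at (1.71, SE 0.19) and 1433731_at (1.29, SE 0.17) rose less, and 1450687_at (3.03, SE 0.19) had 3 of 4 8-cell arrays under the 40th percentile. All 5 kept the stages apart. The sixth, 1453957_a_at, ran from 86.3 to 228 in blastocysts and from 114 to 151 in 8-cell embryos and did not pass (0.37, SE 0.26, adjusted p = 0.240). Without blastocyst replicate 1 it did (0.65). The gene's difference was 1.89 over the mean of all 6 probe sets. With probe sets whose names end in _x_at, _s_at or _a_at left out, 1433731_at and 1450687_at remained. The gene was then read on the brighter of them, 1433731_at (1.29), and not on their mean.

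Igf2bp1, a close relative of Igf2bp3 (chr11:95957163-96005944), gave opposite answers on different probe sets. On the brightest, 1418761_at, the signals were 1294, 1301, 1404 and 1351 in blastocysts, against 2983, 2988, 2424 and 3124 in 8-cell embryos. All blastocyst arrays were below all 8-cell arrays (-1.09, SE 0.13, 2.13-fold lower, adjusted p = 4.49e-05). On 1455223_at the signals were 1736, 1467, 1477 and 1377 in blastocysts and 206, 149.7, 182 and 144 in 8-cell embryos. There every blastocyst array was above every 8-cell array (3.04, SE 0.15, 8.24-fold, adjusted p = 1.60e-07). The probe set 1449210_at also rose, with 833, 803, 891 and 678 in blastocysts and 294, 216, 297 and 232 in 8-cell embryos (1.57, SE 0.16, 2.98-fold, adjusted p = 1.24e-05). The fourth, 1459825_x_at, ran from 499 to 643 in blastocysts and from 168 to 529 in 8-cell embryos and did not pass (0.63, SE 0.31, adjusted p = 0.0964), but passed in 4 of 18 alternatives: without 8-cell replicate 1 (0.83), with hybridisation control scaling (0.97), with 64 added (0.55) and with an intensity trend (0.63). Without 8-cell replicate 4 the difference was 0.30, and with quantile normalization 0.35.

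The opposing Igf2bp1 calls held in all 18 alternatives that read each of these 3 probe sets. With the mean of the 4 probe sets the gene was higher (1.04, adjusted p = 6.16e-05). The platform annotation gives 1418761_at and 1449210_at the same source sequence, and where on the transcript each one lies was not used here. Of 3901 genes with at least 2 called probe sets, 687 (17.6%) had calls in both directions, so such a split is not rare on this array. The RNA had been amplified, and control probe sets at opposite ends of a transcript differed less in blastocysts: the 3' signal minus the 5' signal was 0.82 ± 0.11 log2 units in blastocysts and 2.42 ± 0.19 in 8-cell embryos for Actb, and 1.36 ± 0.11 in blastocysts and 2.32 ± 0.26 in 8-cell embryos for Gapdh (SD, n = 4 each). The part of this in the differences between probe sets of a gene, or in any other stage difference given here, was not tested.

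**Figure D3:**
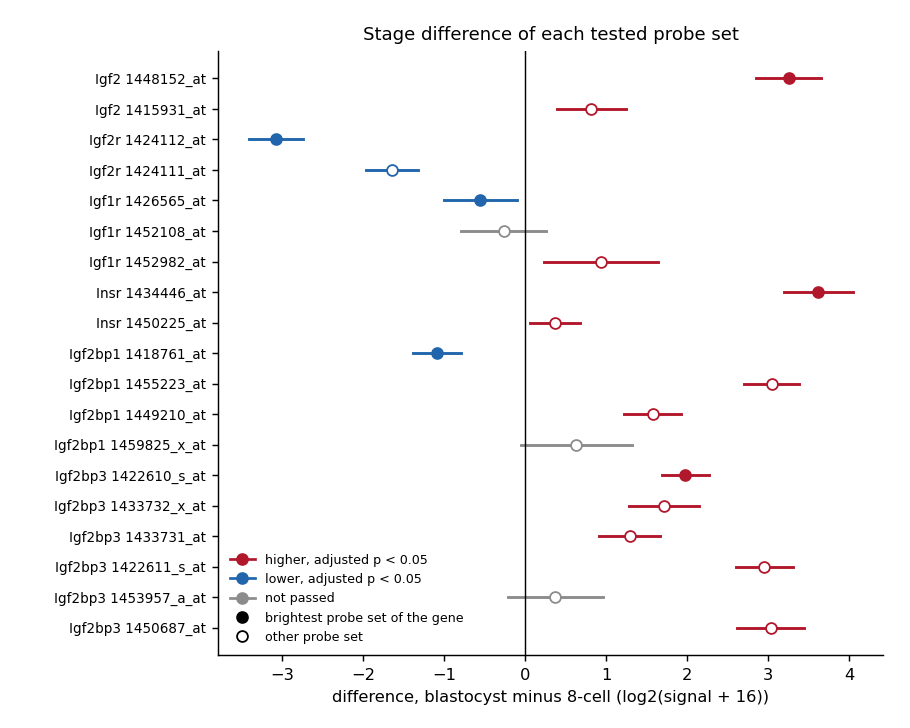
Difference (blastocyst minus 8-cell, log2(signal + 16)) of each of the 19 tested probe sets with its 95% confidence interval from limma. Filled points are the brightest probe set of a gene, red marks higher, blue lower and grey not passed. For Igf2 1415931_at and Insr 1434446_at, under the 40th percentile on all 8-cell arrays, the plotted value depends on the added 16. Igf2, Insr and Igf2bp3 point right, Igf2r points left, and Igf1r and Igf2bp1 have points on both sides of 0.

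Around the members, 83 further genes of the pathway were listed by role. Each was read on its brightest probe set, 71 of them had a probe set with that single symbol and 65 were tested. In this set 19 rose, 31 fell and 15 missed the threshold, that is 76.9% called against 70.5% of 13274 genes read the same way (36.9% higher and 33.6% lower). Their median difference was -0.47, against 0.02 over all these genes. The falls include those of Irs2 and Lin28b, described below, which passed the filter only through the 8-cell embryos. With the arrays scaled to the bacterial hybridisation controls, 22 were higher and 18 lower (55.0% of the calls higher against 38.0% on the deposited scale), and over all genes the median difference moved to 0.34 and the higher share of calls to 65.8% from 52.3%.

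The other ligands measured were dim at both stages. Igf1 gave 49.3 ± 23.1 in blastocysts and 47.6 ± 8.80 in 8-cell embryos, and Ins2 gave 41.3 ± 22.8 in blastocysts and 36.9 ± 23.6 in 8-cell embryos (SD, n = 4 each). Both differences missed the threshold (Igf1 -0.01, SE 0.23, and Ins2 0.12, SE 0.40). These are the brightest probe sets, and 1 of the 2 other tested probe sets of Igf1 was called higher in blastocysts. The IGF-binding proteins hold IGFs in the extracellular space. Of 10 listed binding proteins and their proteases 6 were tested, of which 3 fell, 0 rose and 3 missed the threshold, with a median of -0.87. The lower ones were Igfbp3 (-2.32, SE 0.27), Igfbp6 (-1.51, SE 0.24) and Igfbp4 (-1.02, SE 0.15), all of them dim, with means of up to 67.7 in blastocysts and 153 in 8-cell embryos. Igfbp3 had 12.3 ± 13.1 in blastocysts and 118 ± 21.8 in 8-cell embryos, with 3 of 4 blastocyst arrays under the 40th percentile.

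Inside the cell, the adaptors that couple the receptors to their pathways were split. Among 10 tested, 2 rose, 5 fell and 3 missed the threshold (3 up and 3 down with hybridisation control scaling). The adaptor genes Shc1 (1.52, SE 0.19) and Gab1 (1.33, SE 0.14) rose, and Grb2 (-1.24, SE 0.14), which links receptors to RAS, fell. Irs2, which docks PI3K at the insulin and IGF1 receptors, was also called lower, but it was under the 40th percentile on all blastocyst arrays and passed the filter only through the 8-cell embryos. It was at least 2.28-fold lower in blastocysts, and its fitted difference ran from -2.92 to -0.86 over the alternatives. Grb10, an imprinted inhibitor of both receptors, averaged 470 ± 229 in blastocysts and 235 ± 18.4 in 8-cell embryos and did not pass (0.81, SE 0.34, adjusted p = 0.0577).

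The PI3K, AKT and mTOR pathway had 20 genes tested, of which 5 rose, 10 fell and 5 missed the threshold, with a median of -0.27. With hybridisation control scaling these were 7, 5 and 8 and the median 0.09, so no direction of this list held under every scaling. For 3 of the 15 called genes another probe set was called the other way. One of them was Gsk3b, named after its values were seen, whose brightest probe set was lower while its other 5 tested probe sets were all called higher. The largest falls were those of the kinase genes Gsk3a (-1.83, SE 0.20), Pik3cb (-1.60, SE 0.22) and Pdpk1 (-1.22, SE 0.12), and of the mTORC2 subunit gene Rictor (-1.62, SE 0.24), for which another probe set was called higher and the mean of its probe sets gave 0.02. Of 9 listed genes of the RAS and MAPK pathway only 4 had a probe set naming that gene alone. All 4 were tested and 3 were higher, Nras (2.87, SE 0.12), Map2k1 (0.92, SE 0.15) and Braf (0.72, SE 0.15). Over the mean of its probe sets Braf gave 0.22 and did not pass (adjusted p = 0.103). Map2k2 was lower (-1.67, SE 0.14).

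**Figure D4:**
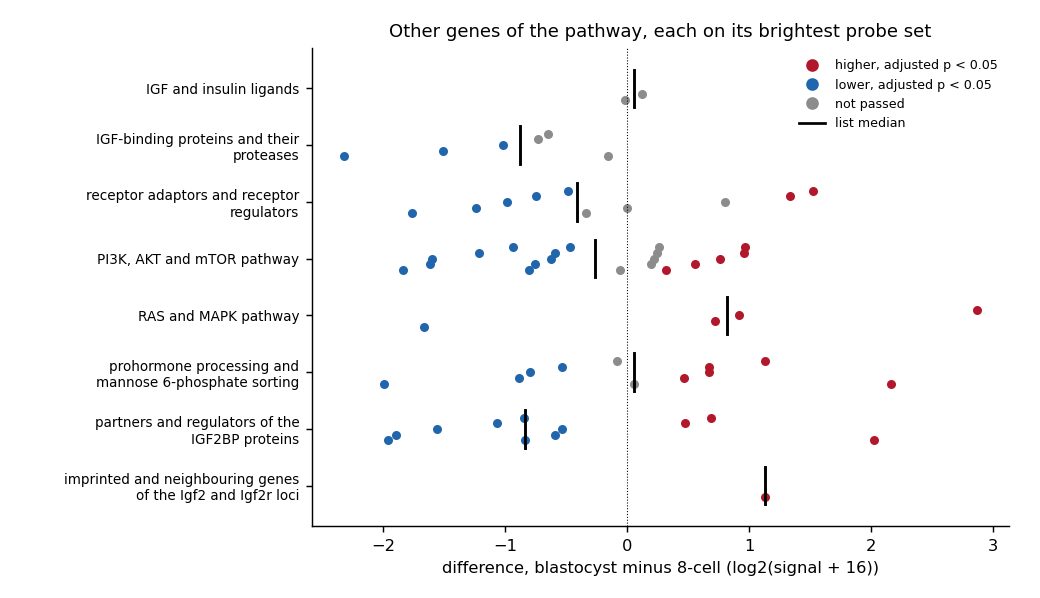
Difference (blastocyst minus 8-cell, log2(signal + 16)) of the 65 tested pathway genes by list, each on its brightest probe set. Red points are higher, blue lower and grey not passed, and the black bar is the median of the list, -0.87 for the IGF-binding proteins and -0.84 for the partners of the IGF2BP proteins.

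The machinery that matures IGF2 and sorts cargo by mannose 6-phosphate was split. Among the 11 genes tested, 5 rose, 4 fell and 2 missed the threshold (5, 2 and 4 with hybridisation control scaling). The proprotein convertase gene Pcsk6 (2.17, SE 0.14) and the sorting adaptor gene Gga2 (1.13, SE 0.12) rose, and Gnptg (-1.99, SE 0.16), encoding a subunit of the enzyme that makes the mannose 6-phosphate tag, and the convertase gene Pcsk4 (-0.89, SE 0.20) fell. M6pr, the other mannose 6-phosphate receptor, gave 4056 ± 111 in blastocysts and 4303 ± 171 in 8-cell embryos (-0.08, SE 0.11, adjusted p = 0.535). The 95% confidence interval of its difference was -0.34 to 0.17.

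RNA-binding partners and regulators of the IGF2BP proteins were mostly lower on the deposited scale. Of 11 tested genes 8 were lower and 3 higher, with a median of -0.84. With hybridisation control scaling 4 were lower, 3 higher and 4 did not pass, and the median was -0.48. For 3 of the 11 another probe set was called the other way, among them Hnrnpu, named after its values were seen, which was lower on its brightest probe set and higher on 3 of its other 4. Syncrip (-1.96, SE 0.18), a component with IGF2BP1 of a complex on MYC messenger RNA, and the poly(A)-binding protein gene Pabpc4 (-1.56, SE 0.12) fell. Lin28b, encoding an inhibitor of let-7 maturation, was also called lower, but it was under the 40th percentile on all blastocyst arrays and passed the filter only through the 8-cell embryos. It was at least 2.47-fold lower in blastocysts, and its fitted difference ran from -3.29 to -0.95 over the alternatives. Elavl1 (2.02, SE 0.17), encoding the stabilising RNA-binding protein HuR, rose. At the imprinted loci Airn, the long noncoding RNA transcribed antisense to Igf2r, was the only one of 6 listed genes tested. It gave 82.6, 108, 163 and 121 in blastocysts and 57.9, 40.5, 55.9 and 27.0 in 8-cell embryos, with no overlap (1.13, SE 0.23, adjusted p = 0.00159).

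Many lineage markers also differed between the stages. The summed signal of the 8 trophectoderm markers ran from 82068 to 91221 in blastocysts and from 3162 to 3758 in 8-cell embryos. Of 8 primitive endoderm markers 6 were higher and 2 lower, Gata4 (-0.95, SE 0.24) and Gata6 (-0.55, SE 0.15), with sums of 33932 to 43330 in blastocysts and 10352 to 13583 in 8-cell embryos. Among the higher ones Sox17 and Lama1 were under the 40th percentile on all 8-cell arrays and passed the filter only through the blastocysts. Of 8 epiblast markers 4 were higher, Nanog (1.63, SE 0.15) and Sox2 (4.01, SE 0.26) among them, and 1 did not pass. The 3 lower ones were Klf2 (-2.32, SE 0.17), Esrrb (-1.34, SE 0.17) and Pou5f1 (-0.90, SE 0.13). The epiblast sums overlapped, with 14271 to 19273 in blastocysts and 17109 to 20868 in 8-cell embryos. Of 8 markers of cumulus and granulosa cells, the maternal cells around the egg, 3 were tested and 2 were lower, with sums of 457 to 541 in blastocysts and 6574 to 10248 in 8-cell embryos. Nearly all of the 8-cell sum was Amhr2 (282 ± 36.8 in blastocysts and 8118 ± 1598 in 8-cell embryos), while Fshr did not pass (0.48, SE 0.42) and Ptgs2 and Tnfaip6 were under the 40th percentile on each array. The sums for 5 blood cell markers ran from 219 to 404 in blastocysts and from 161 to 211 in 8-cell embryos, and of those tested Lyz2 was higher (0.74) and Cd68 did not pass (0.49). The part of a changing cell makeup in the members' differences was not tested.

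For each member the genes whose log2 values ran most like it over the 8 arrays were looked up among 12596 genes. Igf2 was most like Shmt1 (Pearson r = 0.999) and Slc35f5 (0.998), Igf2r like Topbp1 and Sec1 (both above 0.999), Insr like Lamc1 (0.999) and Nedd4 (0.999), and Igf2bp3 like Stxbp2 (0.999) and Gsta4 (0.999). The brightest Igf2bp1 probe set was most like Ube2z (0.997) and Setd1b (0.997), and Igf1r like Cacng7 (0.989) and Atp13a1 (0.984). The 8 points form 2 clusters, the stages, so high values arise for any pair of genes that differ between them, and they are given as a description. Likeness in pattern is not likeness in size: Slc35f5 differed by 3.13 between the stages, close to Igf2, and Shmt1 by 0.73.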

How the data were processed

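Expression was measured on 8 one-colour arrays, 4 per stage, grouped by the stage in their titles. Per the labels' protocols, RNA was isolated with a PicoPure kit, amplified with a small-sample labelling assay and biotinylated. The deposited values are linear signal intensity per probe set. The software behind the authors' values is not stated in the labels. They show a common mean of 500 after removal of the outer 2% on each array. The deposited 8-cell values carry at most 1 decimal and those of blastocysts at most 0.375% so, so a difference in handling cannot be told apart from stage. The value table had 45101 probe sets, of which 64 were controls. The platform annotation gave 34945 probe sets 1 symbol and 932 several, which named no gene.

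Values became log2(signal + 16) and were tested with limma (version 3.58.1, R 4.3.3; lmFit, eBayes, no covariates) over all 28227 probe sets above the 40th percentile on at least 4 arrays, with Benjamini-Hochberg adjustment and a threshold of 0.05. A gene was read on the probe set with the highest mean log2 value. A probe set under the 40th percentile on all arrays of a stage was given a fold bound, from the mean log2 signal of the other stage against that of the percentile. The fit was also run on simulated data in which few probe sets changed. Most changed here, so that run does not measure the error of these calls. The 7 members and 8 pathway lists were chosen with earlier results of these data known. The rule named all member probe sets, up to 4 called genes per list, the first 2 tested markers of a list and the 2 genes most like each member. Grb10, M6pr, Igf1, Ins2, Ptgs2, Tnfaip6, Pou5f1, Klf2, Esrrb, Gsk3b, Hnrnpu and Igf2os were named after their values were seen. So were the markers Elf5, Omt2b, Arg1, Nlrp14, Oosp1, Sox17 and Lama1. Same-numbered arrays did not vary together (correlations -0.03 to -0.01), so the numbers were not taken as pairs. Plots used Python 3.11.15 and matplotlib 3.10.9.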

Additional observations from a re-analysis of the deposited data

Results flagged for a closer look

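Of 44 groups of 4 arrays (22 probe sets at 2 stages), 2 held an array far from the other 3 by Dixon's 95% criterion, and chance flags about 1 in 20 groups. Both lie in probe sets that did not pass the filter. They enter only the average over all probe sets of Insr (1.51) and of Igf1r (0.07) and the fit with no filter. On Insr 1421380_at, blastocyst replicate 1 read 14.2, against 44.2 to 45.8 on the other blastocyst arrays. On Igf1r 1446303_at, blastocyst replicate 4 read 53.1, against 7.12 to 10.8 on the other blastocyst arrays.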

How the results depend on the processing

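The differences of Igf2, Igf2r and Igf2bp3 kept their sign and passed the threshold in all 20 alternatives, from 2.03 to 3.58, -3.15 to -2.37 and 1.29 to 2.33. Insr ran from 1.51 to 4.40 and passed in all 20 too. Its brightest probe set entered the fit only through the blastocysts, so these passes add no support. The call of its other tested probe set, 1450225_at, was lost in 8 of 17 alternatives. Igf1r lost its call with median scaling (-0.49), with hybridisation control scaling (-0.27), with no filter (-0.56), with an intensity trend (-0.56) and with the replicate block (-0.56), and reversed when its probe sets were averaged (0.0674). Without single arrays it ran from -0.67 to -0.38. It had no value with a filter at the 60th percentile, which it did not reach. Igf2bp1 reversed to 1.04 when its probe sets were averaged, since those that rose then count. The replicate block also ended the call of Insr 1450225_at (0.37), and it left 14 member probe sets called against 16 and ended no other member call. The member count ran from 12 (filter at the 60th percentile, 14 tested) to 17, the pathway count from 40 to 52 against 50, and the count over all probe sets from 15381 to 19909 against 18734. With hybridisation control scaling 65.0% of all calls were higher, against 50.6%, and the median difference moved to 0.29 from -0.01. Signals near the 40th percentile, as for Igf1r, limit what these arrays can show.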

Other observations

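Igf2os, an antisense transcript whose annotated span overlaps that of Igf2, was read by 1 probe set (1427394_at) and was named after its values were seen. Its signals were 242, 253, 269 and 271 in blastocysts, against 74.9, 129, 69.2 and 6.9 in 8-cell embryos. The blastocyst arrays were all above the 8-cell arrays (1.95, SE 0.47, adjusted p = 0.00430), and the 8-cell arrays differed widely among themselves. Over 20 alternatives it ran from 1.36 to 2.42 and kept its call.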
